A study of Mus musculus with 12 samples.

Results

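The DNA replication and S phase genes described here are 34 genes whose products license origins, unwind and copy DNA, supply nucleotides, package new DNA and control entry into S phase. They form a list of gene names whose rule refers to no measured value, and their probes were found by matching each probe's transcript accession to a RefSeq gene table. The array carried 40 probes for them, 28 genes with 1 probe and 6 with 2, and 39 of these probes passed the filter on dim probes, so that all 34 genes were among the 19802 genes tested. Each gene was read from its kept probe of highest mean signal, and all values below are log2 normalised intensities unless stated otherwise.

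Primary microglia were shaken off mixed glial cultures of neonatal C57BL/6 brains and plated before treatment. One group received supernatant of restimulated Th1 cells and another that of Th17 cells, and per the study's methods for glial treatment the supernatant was diluted with an equal volume of DMEM. The untreated controls received complete IMDM, the T cell medium, in its place, diluted alike. The labels give no treatment time, and the methods give 16 h in a sentence on astrocytes, without stating whether it also holds for microglia. Total RNA of 12 samples was hybridised to one-colour arrays, 4 per group, from experiments 12, 13, 14 and 16, which the study describes as independent. Arrays are named by group and experiment, as in Th1 14.

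Before S phase, the origin recognition complex, Cdc6 and Cdt1 load a ring of Mcm2 to Mcm7 onto DNA, and Cdc45 and the GINS complex then turn this ring into the active replicative helicase. Polymerases, the Pcna clamp and its loader copy the strands, Fen1 and Lig1 join the lagging strand pieces, and ribonucleotide reductase, thymidylate synthase and thymidine kinase supply deoxynucleotides. Many of these genes are classical targets of E2F transcription factors, which the retinoblastoma protein family restrains until cyclin and CDK activity releases them. Microglia are long-lived macrophages that can renew themselves by division, and they proliferate in culture with other glia.

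The arrays carried the transcripts of microglia. All 14 microglia markers that passed the filter were well above background on all 12 arrays, Csf1r between 17.72 and 18.34. With Th1 supernatant 3 of the 14 fell (Cx3cr1 -6.31 ± 0.70, Trem2 -2.50 ± 0.22 and Tmem119 -2.29 ± 0.48) and 4 rose (Fcgr3 1.93 ± 0.15, P2ry12 1.61 ± 0.22, Aif1 1.18 ± 0.26 and Ptprc 1.04 ± 0.18), while none of the 14 was called after Th17 supernatant. Markers of other cells were present in part. Of 10 astrocyte markers 7 passed the filter, with Gja1 and Sox9 above background on no array and Gfap on 10. Aldh1l1 (9.59 to 11.87), Fabp7 (8.28 to 12.17), Aldoc (9.30 to 12.95) and Aqp4 were above background on all 12. Of the 7, Th1 supernatant lowered Fabp7 (-2.24 ± 0.35), and no other was called in the fit without a block. With experiment as a block, Aldoc was called lower (-1.72 ± 0.24) and Gfap higher (1.02 ± 0.23). Gfap was above background on only 2 untreated arrays. Oligodendrocyte lineage markers passed in 9 of 11, with Pdgfra above background on none and Mbp (11.89 to 14.69), Cspg4, Mag and Cnp on all 12. Th1 supernatant lowered Cspg4 (-4.24 ± 0.24) and Mbp (-1.60 ± 0.29) and raised Mag (2.06 ± 0.16) and Cnp (1.67 ± 0.20). With experiment as a block Olig1 was called lower too (-1.18 ± 0.27), though above background on only 2 Th1 arrays. T cell markers passed in 5 of 8 with a probe, with Cd3d, Cd3g and Cd8a above background on none. Cd3e (9.65 to 10.61), Cd4 (12.10 to 12.72), Lck, Cd28 and Cd5 were above background on all 12 arrays, and Th1 supernatant raised Lck (2.35 ± 0.25) and lowered Cd28 (-5.28 ± 0.48) and Cd5 (-1.31 ± 0.15). Of 8 fibroblast and mural markers 4 passed, with Lum and Rgs5 above background on none and Tagln (10.80 to 11.92), Postn and Col1a2 on all 12. The summed signal of the astrocyte list was 12.27 to 13.55 in log2 units in untreated, 12.03 to 12.50 in Th1 and 12.01 to 13.54 in Th17 arrays. For the T cell list it was 13.26 to 13.45, 12.86 to 13.07 and 12.67 to 13.43, and for the 34 replication genes 18.40 to 18.98, 17.43 to 18.17 and 18.68 to 19.10. In bulk RNA, fewer cells in S phase and less of a transcript per cell cannot be told apart.

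Some arrays stood apart. Over the 34 genes, Th1 14 was the lowest Th1 array in 30 and untreated 14 the lowest untreated array in 33. In experiment 14 the mean of the astrocyte markers, centred on the 12 arrays, was 1.01, 0.47 and 0.63 (untreated, Th1 and Th17), against -0.51 to 0.20 on the other 9. Th17 13 was the highest Th17 array in 30 of the 34 genes. The mean of 5 genes used to check the interferon response, centred in the same way, was 0.29 on Th17 13, where the other Th17 and the untreated arrays lay between -3.79 and -1.56 and the Th1 arrays between 4.51 and 4.75. The arrays lay on 3 slides of 4 arrays each, each with all 3 groups, and experiments 13 and 14 were split between slides. The part of these markers and arrays in the results was not tested. Values without Th1 14 are given below where they end a call or move a value by over 1.5 times. For Gins4 and Slbp, whose changes are near 0, the range over single left-out arrays is given in their place.

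RefSeq promoter windows (build GRCm38.p6, 250 bases before to 50 after the annotated start, 300 in all) were at hand for 28 of the 34 genes. They were searched on both strands for E2F words (any of TTTGGCGC, TTTCCCGC, TTTGCCGC and TTTCGCGC, whose matches may overlap each other) and for CCAAT, the box bound by NF-Y. The windows of the 4 genes with the largest called fall after Th1 supernatant and of the gene with the smallest change (Slbp) are printed so that their letters can be set beside the values below. Gins4, with the next smallest change, is not in the table. Lig1 has 3 windows, and the one printed is the one that holds an E2F word. Capitals mark matches to either pattern.
Tk1, chr11:117825965-117826264, minus strand: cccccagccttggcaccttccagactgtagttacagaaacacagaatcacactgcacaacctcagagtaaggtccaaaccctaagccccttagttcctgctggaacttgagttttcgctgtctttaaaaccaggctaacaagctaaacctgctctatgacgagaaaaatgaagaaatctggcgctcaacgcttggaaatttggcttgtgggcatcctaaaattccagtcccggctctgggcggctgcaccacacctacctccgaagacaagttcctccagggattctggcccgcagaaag
Rrm2, chr12:24708004-24708303, plus strand: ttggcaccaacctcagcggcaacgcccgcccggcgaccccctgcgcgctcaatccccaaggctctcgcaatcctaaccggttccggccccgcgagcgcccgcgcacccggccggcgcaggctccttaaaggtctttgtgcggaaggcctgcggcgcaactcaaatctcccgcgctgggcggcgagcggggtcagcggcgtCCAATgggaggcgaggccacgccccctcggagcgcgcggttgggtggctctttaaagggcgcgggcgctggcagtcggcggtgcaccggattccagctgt
Lig1, chr7:13278576-13278875, plus strand: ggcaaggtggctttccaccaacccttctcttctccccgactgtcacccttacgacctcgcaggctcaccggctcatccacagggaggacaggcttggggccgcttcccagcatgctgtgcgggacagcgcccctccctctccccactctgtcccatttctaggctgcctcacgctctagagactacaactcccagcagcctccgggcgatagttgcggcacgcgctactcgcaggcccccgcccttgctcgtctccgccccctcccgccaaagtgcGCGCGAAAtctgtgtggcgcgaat
Mcm6, chr1:128359656-128359955, minus strand: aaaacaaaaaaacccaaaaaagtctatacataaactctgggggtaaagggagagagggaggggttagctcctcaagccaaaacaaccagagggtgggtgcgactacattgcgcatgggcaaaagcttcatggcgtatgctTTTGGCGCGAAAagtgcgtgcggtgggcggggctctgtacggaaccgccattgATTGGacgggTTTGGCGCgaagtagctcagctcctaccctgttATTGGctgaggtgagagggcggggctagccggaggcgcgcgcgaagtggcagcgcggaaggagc
Slbp, chr5:33652525-33652824, minus strand: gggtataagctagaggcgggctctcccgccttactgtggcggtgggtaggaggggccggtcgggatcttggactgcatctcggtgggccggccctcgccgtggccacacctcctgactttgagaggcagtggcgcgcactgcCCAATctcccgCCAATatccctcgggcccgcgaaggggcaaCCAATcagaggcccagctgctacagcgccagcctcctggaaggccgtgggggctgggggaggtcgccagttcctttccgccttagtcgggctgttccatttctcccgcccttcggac

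The Mcm6 window held TTTGGCGC 110 and 47 bases before the start, the first overlapping TTTCGCGC on the other strand, and CCAAT on the reverse strand at 57 and 14 bases before it. In the Lig1 window the single match, TTTCGCGC on the reverse strand, began 26 bases after the start. Rrm2 had CCAAT at 50 bases before the start and no E2F word, Slbp had CCAAT at 108, 97 and 67 bases, and the Tk1 window matched neither pattern. A gene was counted where any of its windows held a match. Of the 28 genes with a window, 12 held an E2F word (42.9%). The share was 4.35% of 11160 tested genes with a window and 2.6% of all 27025 genes with one. CCAAT was found in 17 of the 28 (60.7%), against 42.8% of tested genes and 41.1% of all genes with a window. The E2F words were in Cdc6, Cdt1, Mcm3, Mcm5, Mcm6, Mcm7, Gins3, Pola1, Pold1, Rfc3, Lig1 and Uhrf1. In the comparison of Th1 with untreated, these 12 genes had a median log2 fold change of -0.96 (range -1.55 to 0.46) and the 16 genes without such a word a median of -0.62 (range -2.27 to 0.86). A match is a description of letters, and no match says only that these words are not in this window.

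Whether Th1 supernatant changed replication genes was asked first. A gene was called where limma's Benjamini-Hochberg adjusted p over all genes was under 0.01 and the change exceeded 2-fold. Of the 34 genes, 7 fell and none rose, that is 20.6%, where 7.88% of all genes tested were called lower and 7.49% higher. The 7 were Tk1, Rrm2, Lig1, Mcm6, Mcm3, Mcm7 and Prim1. Without Th1 14, and with untreated 14 kept, the count was 4 (Tk1, Rrm2, Lig1 and Mcm6). With all 3 arrays of experiment 14 left out, Mcm7 and Prim1 were not called (-0.85 and -0.96). In that run Mcm3 stayed called, and Uhrf1 was called (-1.28, adjusted p = 0.00208). With experiment as a block the count was 8, Uhrf1 being added, where 9.31% of all genes were called lower. The median log2 fold change of the 34 was -0.75, against -0.06 over all genes tested, and -0.54 without Th1 14.

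Called or not, the 34 genes lay mostly on the low side. Values were negative for 30 and positive for 4. At an adjusted p under 0.05 with no limit on the fold, in the fit without a block, 18 were lower and 2 higher. By that rule 24.4% of all genes were lower and 19.9% higher. In the limma fit with experiment as a block, all but Gins2, Gins4, Rfc5, Slbp and Ccne1 had an adjusted p under 0.05. Of those under 0.05 only Rfc3 and Tyms were higher. The share of all genes under 0.05 in the blocked fit was not counted. In 27 of the 34 genes the Th1 array was below the untreated array in all 4 experiments, as in 35.6% of all genes, and in 13 all 4 Th1 arrays lay below all 4 untreated arrays, as in 21.9% of all genes. The median difference within experiments 12, 13, 14 and 16 was -0.57, -0.77, -0.91 and -0.75, and between the arrays sharing slides 1, 2 and 3 it was -0.65, -0.62 and -0.75.

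**Figure D1:**
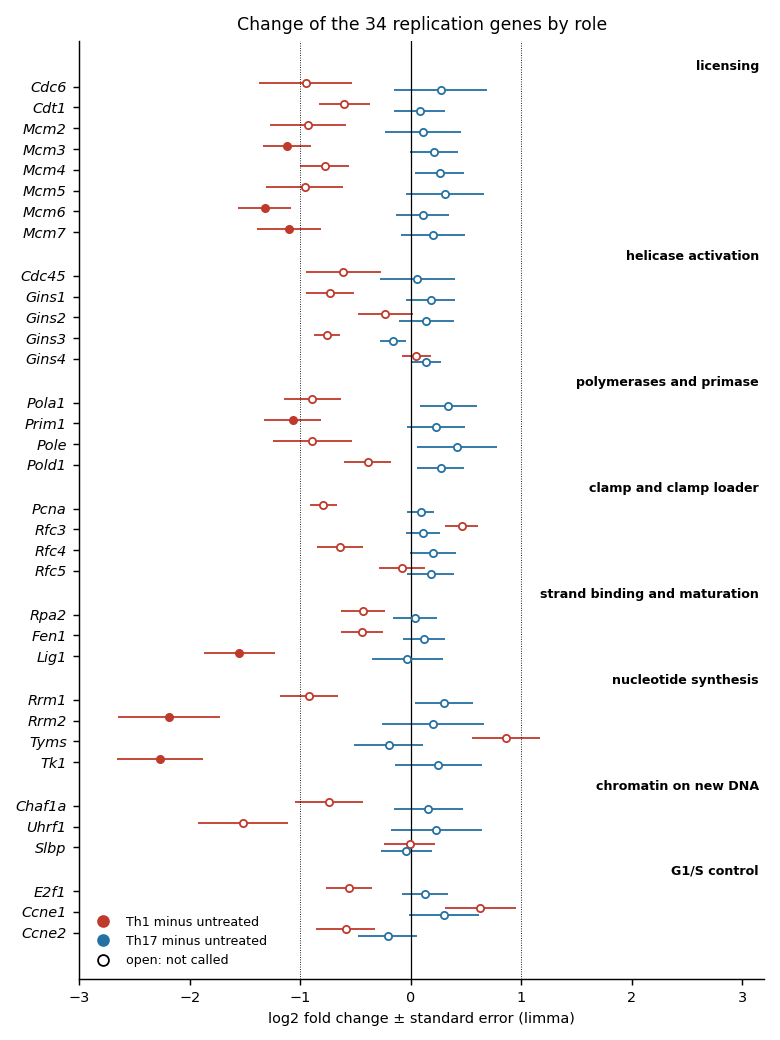
Log2 fold change ± standard error (horizontal axis) of the 34 genes, grouped by role, for Th1 minus untreated (red) and Th17 minus untreated (blue); filled points were called, and dotted lines mark 2-fold. The 7 filled points are all red and on the left, from Tk1 at -2.27 to Prim1 at -1.07, and every blue point lies between -0.21 and 0.42.

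Nucleotide synthesis held the 2 largest changes. Tk1, the thymidine kinase of the salvage pathway, which is made in S phase and destroyed in mitosis, read 13.23, 13.07, 12.44 and 13.42 in untreated cells of experiments 12, 13, 14 and 16. With Th1 supernatant it read 10.97, 11.13, 9.47 and 11.52, and with Th17 supernatant 13.10, 13.73, 12.87 and 13.47. All 4 Th1 arrays lay below the other 8, and Th1 14 was the lowest. Tk1 fell by 2.27 ± 0.39 on the log2 scale (4.81-fold, adjusted p = 0.000717). It was called in every alternative run, from -2.51 to -1.83.

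Rrm2, the S phase subunit of ribonucleotide reductase, read 13.42, 13.45, 12.80 and 14.08 in untreated cells and 11.38, 11.60, 9.83 and 12.19 after Th1 supernatant. Its Th17 values were 13.33, 14.15, 13.10 and 13.98, so that here too the Th1 arrays lay below all others. The fall was 2.19 ± 0.46 (4.56-fold, adjusted p = 0.00235). Rrm1, the large subunit, whose level is known to vary less over the cycle, was lower on every Th1 array (12.37, 12.53, 11.69 and 12.69) than on any untreated array (12.75 to 13.68). Its log2 fold change was -0.92 ± 0.26 (adjusted p = 0.013), which is not past 2-fold, though without untreated 14 it was -1.08 and called (adjusted p = 0.00648).

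Tyms, thymidylate synthase, differed from the other 3. It read 7.20, 7.04, 6.53 and 8.39 in untreated cells and 8.41, 8.0, 8.24 and 7.96 after Th1 supernatant. The value on untreated 16 stood apart from the other 3 untreated values and lay above Th1 16. The log2 fold change was 0.86 ± 0.31 (adjusted p = 0.0411, higher in 3 of 4 experiments) and not called. Without untreated 16 it was 1.23 and called (adjusted p = 0.000408). Tyms was read from a single probe.

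**Figure D2:**
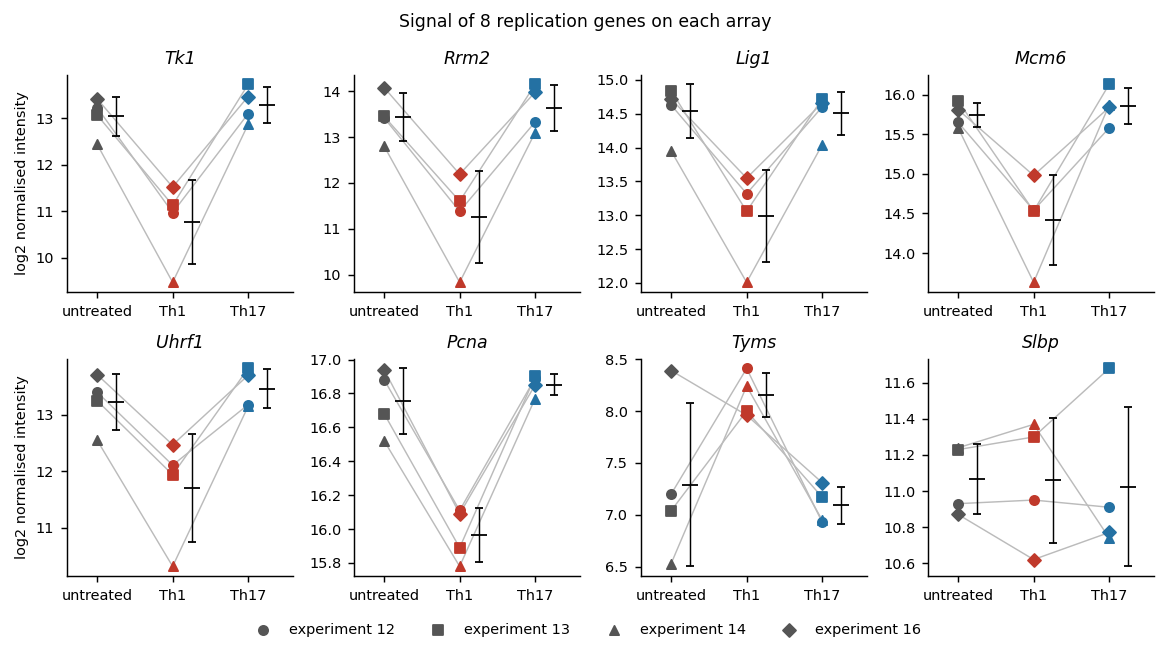
Log2 normalised intensity (vertical axis, own range per panel) of 8 genes on each array; marker shape gives the experiment, grey lines join arrays of 1 experiment, and the black bar gives mean ± SD of 4 arrays. Tk1, Rrm2, Lig1, Mcm6, Uhrf1 and Pcna have all 4 Th1 arrays below the others, Tyms has high Th1 values and 1 high untreated value at 8.39, and the Slbp groups overlap.

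The 8 licensing genes were all negative in every experiment, with a median of -0.95. Of these, 3 were called. Mcm6, a subunit of the Mcm2 to Mcm7 helicase ring, read 15.65, 15.92, 15.58 and 15.81 in untreated cells and 14.54, 14.53, 13.63 and 14.98 after Th1 supernatant. No Th1 array reached the lowest untreated value. It fell by 1.32 ± 0.24 (2.50-fold, adjusted p = 0.000949), in every alternative by 1.06 or more.

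Mcm3 and Mcm7, of the same ring, lay nearer the limits. Mcm3 read 14.53, 14.69, 14.23 and 14.85 against 13.73, 13.65, 12.74 and 13.70 after Th1 supernatant, and Mcm7 13.65, 13.74, 13.40 and 13.87 against 12.84, 12.85, 11.56 and 13.03. In both genes the groups did not overlap, and 3 Th1 arrays lay close together with Th1 14 clearly below them. Mcm3 fell by 1.12 ± 0.22 (adjusted p = 0.00172) and, without Th1 14, was at -0.89 and not called. Mcm7 fell by 1.10 ± 0.29 with an adjusted p of 0.00997, just inside the limit. The Mcm7 call was lost in 18 of 25 alternatives, among them leaving out any array other than Th1 16 or Th17 13 (adjusted p 0.0074 to 0.0272, with -0.76 without Th1 14).

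The other 3 ring subunits were not past 2-fold. Mcm5 gave -0.96 ± 0.35 (adjusted p = 0.0412), Mcm2 -0.93 ± 0.34 (adjusted p = 0.0445) and Mcm4 -0.78 ± 0.22 (adjusted p = 0.0141). Without Th1 14, Mcm5 was at -0.60 and Mcm2 at -0.57. The 6 subunits thus lay between -1.32 and -0.78, and differences between them were not tested. Cdc6, the ATPase that helps load the ring, read 8.71, 9.07, 8.30 and 9.36 against 7.86, 8.40, 6.63 and 8.75, with overlapping groups (-0.95 ± 0.42, adjusted p = 0.0895), and Th1 14 lay far below the other Th1 arrays (-0.52 without it). Its second probe gave -1.48 ± 0.48 (adjusted p = 0.0261), also not called. Cdt1, the loading factor that geminin inhibits, gave -0.60 ± 0.23 (adjusted p = 0.055).

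The helicase activators had no called gene. The 4 GINS subunits form 1 complex. Gins3 read 15.16, 15.36, 14.90 and 14.98 in untreated cells and 14.29, 14.49, 14.18 and 14.36 after Th1 supernatant, with no overlap and a log2 fold change of -0.76 ± 0.12 (adjusted p = 0.000424), past the p limit but not the fold limit. Gins1 gave -0.73 ± 0.22 (adjusted p = 0.0185) and Gins2 -0.23 ± 0.25 (adjusted p = 0.50, and -0.02 without Th1 14). Gins4 read 11.98, 12.02, 11.74 and 12.14 against 12.17, 12.07, 11.85 and 11.96, a change of 0.05 ± 0.13, where 2 standard errors reach from -0.21 to 0.31. Leaving out 1 array at a time gave -0.03 to 0.10. Cdc45, which binds GINS and the Mcm ring, gave -0.61 ± 0.34 (adjusted p = 0.175), and -0.28 without Th1 14. Differences between subunits were not tested.

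Among polymerases, Prim1, the catalytic primase subunit that starts each new strand with an RNA primer, read 12.09, 12.03, 11.65 and 12.41 in untreated cells and 10.96, 11.14, 10.25 and 11.56 after Th1 supernatant. The highest Th1 array, from experiment 16, lay just below the lowest untreated one, from experiment 14. Prim1 fell by 1.07 ± 0.26 (2.10-fold, adjusted p = 0.00641), a call lost in 10 of 25 alternatives, 6 of which left out untreated 12, 13 or 16 or Th1 12, 13 or 14 (-0.83 without Th1 14). Pola1, the catalytic subunit of the polymerase that extends the primer, gave -0.89 ± 0.26 (adjusted p = 0.0152) and was called without untreated 14 (-1.06, adjusted p = 0.00676). Pole and Pold1, the catalytic subunits of the leading and lagging strand polymerases, gave -0.89 ± 0.36 and -0.39 ± 0.21 (adjusted p = 0.0631 and 0.153), and without Th1 14 -0.50 and -0.19.

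Pcna, the sliding clamp, read 16.88, 16.68, 16.52 and 16.94 in untreated cells, 16.11, 15.89, 15.78 and 16.09 after Th1 supernatant and 16.89, 16.90, 16.77 and 16.85 after Th17 supernatant. The 4 Th1 arrays lay below the other 8, and the differences of Th1 minus untreated within the 4 experiments ran from -0.85 to -0.74. At -0.79 ± 0.12 its adjusted p of 0.000244 was the lowest of the 34, but 1.73-fold is under the fold limit. Of the clamp loader subunits, Rfc4 gave -0.64 ± 0.21 (adjusted p = 0.0297), Rfc5 -0.08 ± 0.21 (adjusted p = 0.787, and 0.05 without Th1 14), and Rfc3 0.46 ± 0.15 (adjusted p = 0.0261). Rfc3 read 10.26, 10.15, 9.88 and 10.39 in untreated cells and 10.73, 10.73, 10.45 and 10.61 after Th1 supernatant, higher in all 4 experiments with no overlap.

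Lig1, the ligase that seals Okazaki fragments, was the only called gene of strand maturation. It read 14.63, 14.84, 13.95 and 14.72 in untreated cells, 13.32, 13.06, 12.01 and 13.55 after Th1 supernatant and 14.60, 14.72, 14.04 and 14.66 after Th17 supernatant. Each Th1 array was below all 8 others. The fall was 1.55 ± 0.32 (2.93-fold, adjusted p = 0.00206), and it was called in every alternative run, from -1.75 to -1.23. Fen1, the flap nuclease that acts just before Lig1, gave -0.44 ± 0.19 (adjusted p = 0.0876, and -0.29 without Th1 14), and Rpa2, of the single strand binding complex, -0.43 ± 0.20 (adjusted p = 0.0941).

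The genes that act on chromatin behind the fork were spread widely. Uhrf1, which brings the maintenance methyltransferase Dnmt1 to new DNA, read 13.40, 13.25, 12.55 and 13.71 against 12.11, 11.94, 10.32 and 12.47 after Th1 supernatant. The groups did not overlap, though the highest Th1 array was close to the lowest untreated one. Its log2 fold change of -1.52 ± 0.41 (2.87-fold) was not called at an adjusted p of 0.0112, and it was called in the blocked fit, with an adjusted p of 0.00117, and when untreated 14 or Th1 16 was left out (adjusted p = 0.00763 and 0.0063). A second probe gave -1.39 ± 0.55 (adjusted p = 0.0579). Chaf1a, of the chromatin assembly factor, gave -0.74 ± 0.31 (adjusted p = 0.0707), and -0.42 without Th1 14.

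Slbp, which binds the stem loop of replication-dependent histone mRNAs, had the value nearest 0 of the 34. It read 10.93, 11.23, 11.24 and 10.87 in untreated cells and 10.95, 11.30, 11.37 and 10.62 after Th1 supernatant, -0.01 ± 0.23 with 2 standard errors from -0.47 to 0.45. Its second probe gave 0.00 ± 0.23. The untreated values lay within the range of the Th1 values. Leaving out 1 array at a time gave changes of -0.12 to 0.13.

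At the G1/S step no gene was called. E2f1, an activating E2F factor that is its own target, gave -0.56 ± 0.21 (adjusted p = 0.0476), and -0.36 without Th1 14. Ccne1, a cyclin that activates Cdk2, read 12.27, 12.03, 11.40 and 12.94 in untreated cells and 13.10, 12.53, 12.55 and 12.98 after Th1 supernatant, higher in all 4 experiments by 0.05 to 1.15 with overlapping groups (0.63 ± 0.32, adjusted p = 0.126, and 0.38 without untreated 14). A second Ccne1 probe gave 0.80 ± 0.30 (adjusted p = 0.0462). Its relative Ccne2 was near the floor of 3.91. It was well above background on 3 untreated arrays, 1 Th17 array and no Th1 array, and no fold is given, since its untreated mean of 4.50 is no higher than the detection bound of 4.51 on the Th1 arrays. Its fitted difference enters the counts above but is no bound.

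**Figure D3:**
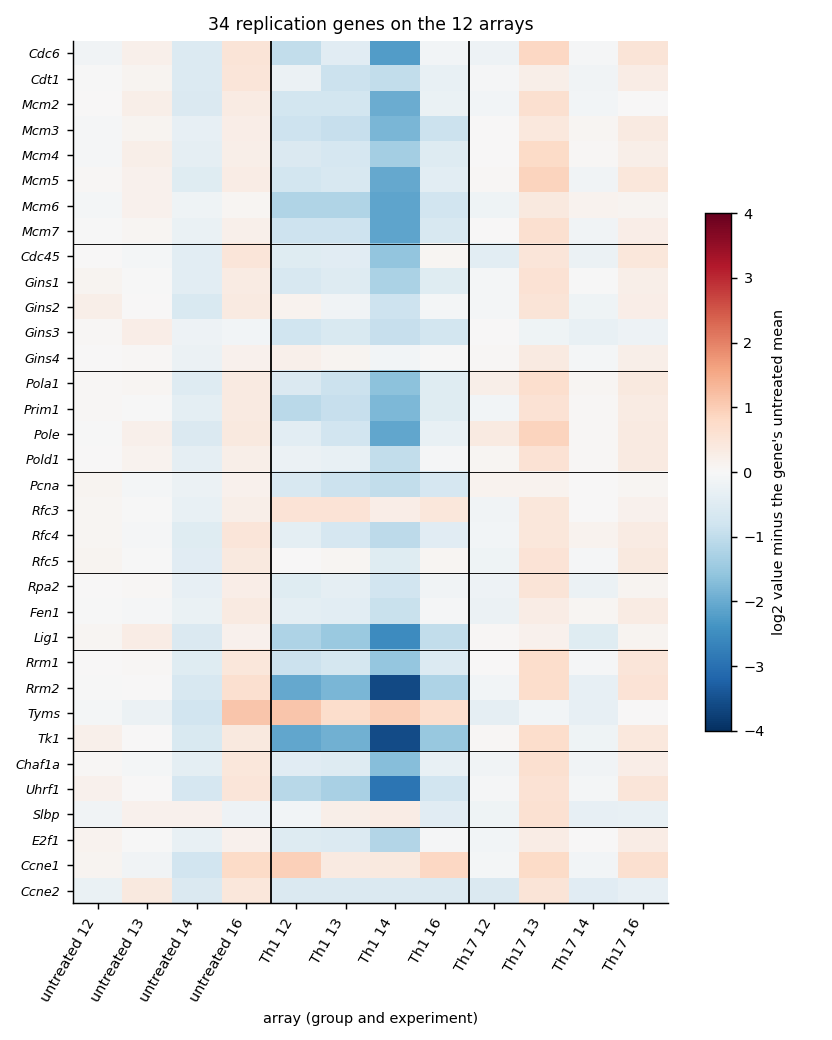
Log2 value minus the gene's untreated mean (colour, blue lower and red higher) for the 34 genes (rows, lines part the roles) on the 12 arrays (columns). Th1 14 is the bluest column and Th17 13 the reddest, and Rfc3, Tyms and Ccne1 are red on all 4 Th1 arrays.

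Th17 supernatant gave no call. Of the 34 genes none was called against untreated, as of all genes tested (0.0%, with 325 genes at an unadjusted p under 0.05 in limma), and with experiment as a block the count was again 0. The lowest adjusted p of the 34 was 1.00, or 0.901 with the block. Apart from Ccne2, which is at the detection limit, log2 fold changes ran from -0.20 (Tyms) to 0.42 (Pole). Of all 34 fitted values 29 were positive and 5 negative, with a median of 0.17 against 0.00 over all genes. The median within experiments 12, 13, 14 and 16 was -0.10, 0.50, 0.39 and -0.03, and without Th17 13 the median was 0.06 and Pole was at 0.27. The median was lowest, at 0.03, without untreated 14. Of the 34, 8 were higher in all 4 experiments, as were 7.5% of all genes. Within slides 1, 2 and 3 the medians were -0.13, 0.97 and -0.21, where slide 2 sets Th17 13 against untreated 14.

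**Figure D4:**
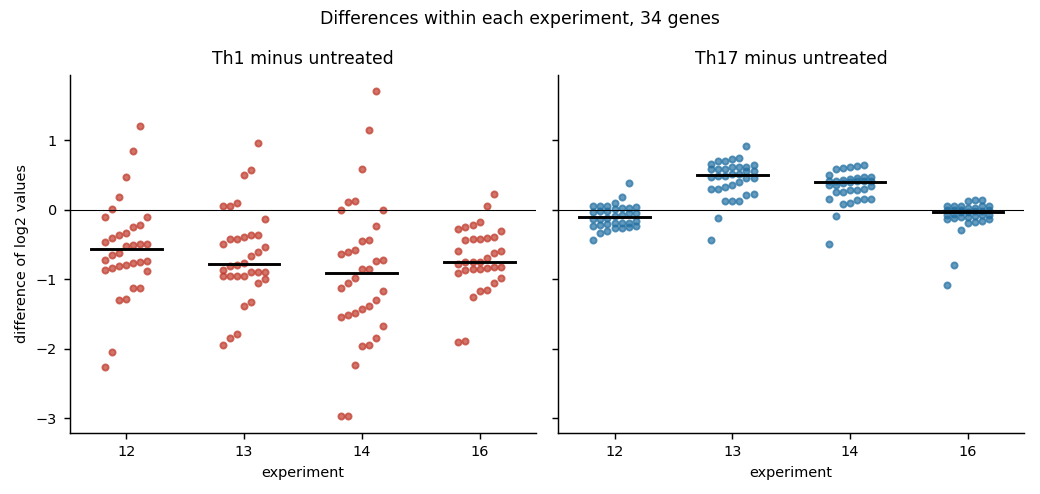
Difference of log2 values within each experiment (vertical axis) for the 34 genes (points) with their median (bar), Th1 minus untreated at left and Th17 minus untreated at right. The Th1 medians lie between -0.91 and -0.57 in all 4 experiments, while the Th17 medians lie near 0 in experiments 12 and 16 and at 0.50 and 0.39 in experiments 13 and 14.

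Set against Th17 supernatant directly, Th1 supernatant gave 11 lower genes and none higher, where 7.91% of all genes were called lower and 6.89% higher. This comparison shares the Th1 arrays with the one above. The 11 were the 7 named above with Mcm4, Pola1, Rrm1 and Uhrf1. Tk1 differed by -2.52 ± 0.39 in log2 units (5.72-fold, adjusted p = 0.000366), Rrm2 by -2.39 ± 0.46 (5.23-fold, adjusted p = 0.00142) and Uhrf1 by -1.75 ± 0.41 (3.37-fold, adjusted p = 0.00526). Without Th1 14 the count was 8, with Mcm4, Mcm7 and Pola1 not called (-0.99 for Pola1), and without Th17 13 it was also 8, with Mcm4, Mcm7 and Uhrf1 not called. Mcm7 was also not called without Th17 16, and Mcm5 and Pole were called without Th1 16. The Uhrf1 call was lost in 9 of 25 alternatives, among them leaving out Th1 13, Th17 12, Th17 13 or Th17 16, and its second probe gave -1.77 ± 0.55 with an adjusted p of 0.0217. The median was -0.89. With experiment as a block 15 genes were lower, Cdc6, Mcm2, Mcm5 and Pole being added, where 9.05% of all genes were. In 21 of the 34 genes the 4 Th1 arrays lay below the 4 Th17 arrays, as in 22.6% of all genes. Tyms, at 7.09 ± 0.18 (SD, n = 4) after Th17 and 8.15 ± 0.21 after Th1 supernatant, had no overlap in the other direction (1.06 ± 0.31, adjusted p = 0.0164, not called). It was called when untreated 14 or untreated 16, which are in neither group, was left out of the shared spread (adjusted p = 0.00746 and 0.000581).

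Other genes of the same pathway were read from 7 lists of cell cycle genes. Of 43 further fork and origin genes, 3 fell after Th1 supernatant and none rose (median -0.34). The 3 are 6.98% of the list, no more than the 7.88% called lower over all genes. They were Asf1b, a histone chaperone (-1.26 ± 0.26, adjusted p = 0.00228), its relative Asf1a (-1.07 ± 0.19, adjusted p = 0.000737, above background on 3 Th1 arrays) and Tipin of the fork protection complex (-1.13 ± 0.24, adjusted p = 0.00245). With experiment as a block 7 fell, where 9.31% of all genes were called lower. Of these 43 genes 32 had negative values and 11 positive, though partner subunits could differ from a member in sign. Pola2, the second subunit of the polymerase of Pola1, gave 0.83 at an adjusted p of 0.00649, and Rfc2 of the clamp loader 0.72 at 0.00594, both under 2-fold. Timeless, the partner of Tipin, gave 0.75 (adjusted p = 0.0314).

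Of 29 measured genes of nucleotide supply and breakdown, 3 fell (10.3%) and 6 rose, beside 7.88% lower and 7.49% higher over all genes. The falls were Dut (-1.72 ± 0.40) and Dctpp1 (-1.18 ± 0.12), pyrophosphatases that act on dUTP and dCTP, and Ctps, CTP synthase (-1.64 ± 0.27). Among the rises were Upp1, uridine phosphorylase (7.71 ± 0.16, from 6.20 to 13.91), Cmpk2, a mitochondrial nucleotide kinase of the interferon response (4.65 ± 1.01), Samhd1, which breaks down deoxynucleotide triphosphates (3.23 ± 0.22, from 13.96 to 17.19), and Pnp, purine nucleoside phosphorylase (2.61 ± 0.23). Dck, a salvage kinase like Tk1, rose by 2.12 ± 0.28 (4.34-fold, adjusted p = 9.82e-05), opposite in direction to Tk1.

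Of 10 measured cyclins, kinases and phosphatases of G1/S, 3 fell and 2 rose. The shares over all genes, 7.88% lower and 7.49% higher, also stand beside the counts of the next 2 lists, which are small. Ccna2, the S phase cyclin (-2.50 ± 0.45, 5.67-fold), Myc (-2.05 ± 0.45) and Cdk6 (-1.86 ± 0.28) fell, while Ccnd2 and Ccnd3, D type cyclins that partner Cdk4 and Cdk6, rose by 2.60 ± 0.43 and 1.11 ± 0.18. Of 7 CDK inhibitors, Cdkn2a rose (1.91 ± 0.28, adjusted p = 0.000209) and Cdkn2c fell (-2.05 ± 0.18, adjusted p = 5.5e-06), and Cdkn1a, the p53 target, stood at 0.02 ± 0.21. Of 17 genes of the pocket protein and E2F families, E2f2 and E2f6 fell (-1.44 ± 0.27 and -1.04 ± 0.13) and Rbl1, which encodes the pocket protein p107, rose by 1.79 ± 0.19 (3.46-fold, adjusted p = 1.74e-05). With experiment as a block 4 of the 17 fell, where 9.31% of all genes were called lower.

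Of 22 genes of replication stress and repair, 3 fell (13.6%, beside 7.88% of all genes), with a median of -0.53, and with experiment as a block 8 fell (beside 9.31%). Among those that fell in both fits were Brca2, which acts in homologous recombination (-2.04 ± 0.50, above background on 3 Th1 arrays), and Msh6, a mismatch recognition subunit (-1.78 ± 0.13). In the list of 26 mitosis genes, 22 fell and none rose, 84.6% of the list against 20.6% of the 34 replication genes, with medians of -1.92 and -0.75. The difference between the lists was not tested. With experiment as a block 24 of the 26 mitosis genes fell, beside 9.31% of all genes. Ccnb2, a mitotic cyclin, fell by 2.80 ± 0.31, and Mki67, the proliferation marker, fell by 2.67 ± 0.31. Among 22 mitosis genes with a promoter window, 1 held an E2F word (4.55%) and 19 held CCAAT (86.4%). No gene of these lists was called after Th17 supernatant.

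**Figure D5:**
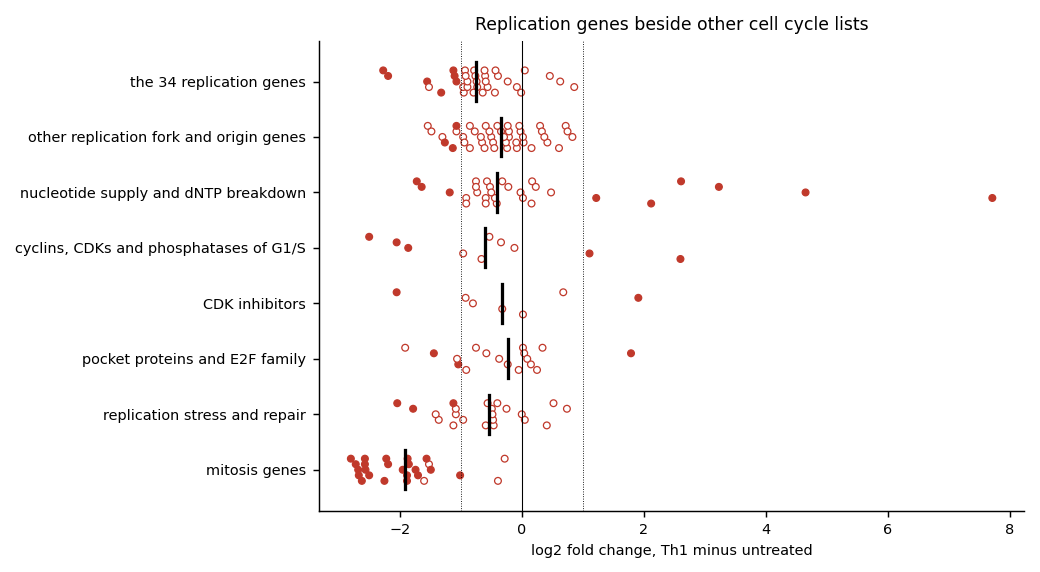
Log2 fold change of Th1 minus untreated (horizontal axis) for each gene (points, filled where called) of the 34 replication genes and of 7 other cell cycle lists, with the list's median (bar). The mitosis list lies furthest left with a median of -1.92, and called genes on the right are found only in the lists of nucleotide supply, G1/S cyclins, CDK inhibitors and pocket proteins.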

How the data were processed

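Total RNA of 12 microglia samples was measured on one-colour Agilent arrays. Per the file headers, the authors read the images with Feature Extraction 10.7.3.1. Spot brightness is deposited as linear intensity, and the processed signal taken from it is corrected for background and for trends across the array, with no scaling between arrays. A deposited value table holds log2 values of the same arrays. Its centring and scale are not stated in its source. It followed the log2 processed signal after 75th percentile scaling and centring of each probe (r of at least 0.99999, column medians -0.226 to 0.18) and served as an alternative.

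Spots marked as outliers were left out (103 to 230 of 43020 per array) and none was saturated. Spots of a probe were averaged by the geometric mean, quantile normalised and brought to a common 75th percentile of 1500. Values under 15 were raised to 15 before log2 was taken. Probes well above background on at least 4 arrays were kept (24287 of 39429), and the one of highest mean signal stood for its gene (19802 genes, 13953 with a symbol from RefSeq, GRCm38.p6, used for names and promoter windows only). Each array had 21486 to 25623 probes well above background. The number of arrays limits the precision.

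Groups were compared with limma 3.58.1 (R 4.3.3), 1 mean per group over 12 arrays, with Benjamini-Hochberg adjustment over all genes. A call needed an adjusted p under 0.01 and over 2-fold, the study's thresholds. Values are log2 fold change ± SE. The steps were tested on simulated data whose arrays were drawn independently, with no effect of experiment, unlike the arrays here. Same-numbered arrays of different groups deviated together (all 12 correlations of their deviations from the group means 0.2445 to 0.6337), so the experiment numbers, which come from the titles, pair the arrays. The fit with experiment as a block is given where it changes a reported call or count of calls.

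The 34 genes and the other lists were chosen with earlier results of these data known. All 34 are accounted for. Per-array values are given for called genes, those nearest the limits and those that differ from the rest, up to 4 called genes of largest change are named from each other list, further genes of those lists (all called genes of a short count, Dck, Pola2, Rfc2, Timeless and Cdkn1a) were chosen after their values were seen, and promoters are shown for the 4 largest called changes and the smallest change. An item of the repair list is not reported here. Alternatives changed the normalisation, the source of values, background correction, floor, filter, probe choice, model, threshold and the arrays used.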

Additional observations from a re-analysis of the deposited data

Results flagged for a closer look

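In groups of 4, a value was set apart where its gap to the nearest other value took up more of the group's range than the limit of Dixon's test allows. Of 173 groups of values or of within-experiment differences of the 34 genes examined, 10 were flagged. Chance flags about 1 in 20, and this count is near that share. All but 1 fell on experiment 14 with Th1 supernatant. Th1 14 was apart from the other Th1 arrays in Mcm3 (12.74, nearest 13.65), Mcm7 (11.56, nearest 12.84), Rfc5 (12.06, nearest 12.53) and Chaf1a (9.87, nearest 11.06). The difference of Th1 minus untreated in experiment 14 was apart from the other experiments in Mcm5 (-1.54, nearest -0.81), Mcm7 (-1.84, nearest -0.89), Cdc45 (-1.17, nearest -0.49), Rrm2 (-2.97, nearest -2.04) and Uhrf1 (-2.23, nearest -1.32). The tenth was Gins3 in experiment 13, Th17 minus untreated, at -0.43 (nearest -0.09). These values share arrays and are not independent of each other.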

How the results depend on the processing

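For each comparison 25 alternatives were run. Without Th1 14 the count of replication genes called in Th1 against untreated was 4 and the median -0.54. With all 3 arrays of experiment 14 left out, that comparison lost the calls of Mcm7 and Prim1 and gained Uhrf1. In Th1 against Th17 the same run lost Mcm4 (-0.92) and gained Mcm5 (-1.07) and Pole (-1.04). Leaving out 1 array at a time gave 4 to 9 calls and medians of -0.87 to -0.54 for Th1 against untreated, 0 calls and medians of 0.03 to 0.28 for Th17 against untreated, and 8 to 13 calls and medians of -0.97 to -0.69 for Th1 against Th17. At an adjusted p under 0.05 with no fold limit the counts were 20 (18 lower, 2 higher), 0 and 25 (24 lower, 1 higher). The other alternatives gave 5 to 8, 0 and 9 to 15 calls, with medians of -0.77 to -0.67, 0.11 to 0.18 and -0.90 to -0.74. With experiment as a replicate block the counts were 8, 0 and 15 and the medians -0.75, 0.17 and -0.89. The block changed no call of the 34 genes other than those named above.

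Over single genes and alternatives, no called value changed direction. Of 849 values per comparison, 797 in Th1 against untreated kept their side of the limits, 31 lost a call and 21 gained one, and in Th1 against Th17 the numbers were 799, 23 and 27. In Th1 against untreated only Mcm7, Prim1 and Mcm3 lost a call, Mcm3 also under 75th percentile scaling (-0.90) and in the deposited value table (-0.89), where it was under 2-fold. Why was not tested. The mean signal column planned for the normexp alternative is not among those used here, so that version was not run, and one on median signal, chosen after seeing the data, replaced it. With 4 arrays a group and standard errors of 0.12 to 0.46, changes under 2-fold are often not resolved in the fit without a block. With experiment as a block, standard errors ran from 0.08 (Pcna) to 0.30 (Tyms) in Th1 against untreated. The adjusted p of that limma fit was 0.00847 for Cdc6, 0.00984 for Cdt1, 0.00996 for Pole and 0.00269 for Mcm5. For Gins2, Rfc5 and Slbp it was 0.244, 0.65 and 0.953.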
